A study of Mus musculus with 12 samples.

Results

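Interferon response genes are switched on by type I interferons, the antiviral cytokines, and 9 of them were followed here across the hippocampus of adult mice: Ifit1, Ifit3, Ifit3b, Ifi27, Isg15, Irf7, Oasl2, Bst2 and Usp18. They were taken by symbol from a table of 36119 genes, and each of the 9 had its own row with a value above 0 in every library. The table holds 12 libraries of C57BL/6 mice at postnatal day 70, 3 in each of 4 groups. Enriched ethanol and standard ethanol mice had been injected under the skin with ethanol in saline, 2.5 g/kg per injection, and enriched saline and standard saline mice with the vehicle. Pups of all 4 groups got 2 injections a day, separated by 2 hours, at postnatal days 6 and 7. After day 21 the enriched groups lived with littermates of their own sex in large cages of 2 to 6 with running wheels, toys and nesting material, and the standard groups in ordinary cages. The labels tag the ethanol as prenatal, while the protocol places every injection after birth, at an age often used to stand for late human pregnancy. The labels do not tie mice to litters or cages, so the p values cover no more than the variation among these 12 libraries, and variation between litters may be larger.

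Infected or damaged cells sense foreign or misplaced nucleic acid through receptors such as the RIG-I family and the endosomal Toll-like receptors, and release type I interferon. Interferon binds the receptor of Ifnar1 and Ifnar2 and activates transcription factors, which bind the interferon-stimulated response element in the promoters of its target genes. In the uninfected brain these genes are kept at a low tone, and microglia, endothelium, neurons and astrocytes can all raise them.

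Values are the deposited TPM, a level corrected for transcript length and library size. The columns do not sum to the same total, as TPM would, but to between 973187 and 1024536, and the table holds no read counts, so depth is unknown. Hippocampal neuron markers were high in every library (Neurod6 between 104 and 152, Camk2a between 515 and 951). Among the other cell types checked, the choroid plexus list summed to 9220 in enriched saline replicate 2 and to 711 in standard ethanol replicate 1, against 182 to 358 in the other 10 libraries. The lowest sums of meningeal fibroblast and mural cell markers were those of standard saline replicate 2 (83.0 and 117). Replicate 3 of that group came next in both (104 and 119). The same pair was highest in hippocampal neuron markers (2220 and 2240). Replicate 1 of the group differed from both, at 138 for fibroblasts, 152 for mural cells and 1620 for neurons. These sums therefore do not set replicate 2 apart from replicate 3. Where Ifit3, Ifi27 or Bst2 lean on enriched saline replicate 2 or standard saline replicate 2, folds within 1 housing or injection are given with and without it. For some other folds the range over libraries left out singly is given.

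3 of the 9 genes lie together on chromosome 19 (GRCm38, plus strand) in the Ifit cluster: Ifit3 at 34583531 to 34588731, Ifit3b at 34607970 to 34613401 and Ifit1 at 34640871 to 34650009, with Ifit2 before them and Ifit1bl1 and Ifit1bl2 between. The other 6 are on different chromosomes: Isg15 on 4 (156199424 to 156200818), Oasl2 on 5 (114896936 to 114912234), Usp18 on 6 (121245906 to 121270917), Irf7 on 7 (141262706 to 141266481), Bst2 on 8 (71534255 to 71537456) and Ifi27 on 12 (103434211 to 103440239). All are protein-coding. The promoters of 4 of them are shown because they carry the element through which the pathway acts, and because Ifit3 and Ifit3b turn out to be near copies. Each is the 250 bases before the RefSeq start site on GRCm38.p6, 5′ to 3′ along the gene's strand, with matches to the response element core in capitals: GAAA, any 2 bases (NN) and GAAA again, or on the other strand TTTC, NN and TTTC, with overlapping matches joined.
Ifit3 (chr19:34583279-34583528, plus): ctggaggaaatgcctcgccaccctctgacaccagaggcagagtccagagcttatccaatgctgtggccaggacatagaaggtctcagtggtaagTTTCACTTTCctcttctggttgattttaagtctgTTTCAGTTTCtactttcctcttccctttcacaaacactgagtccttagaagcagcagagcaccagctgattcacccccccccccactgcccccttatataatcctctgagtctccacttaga
Ifit3b (chr19:34607707-34607956, plus): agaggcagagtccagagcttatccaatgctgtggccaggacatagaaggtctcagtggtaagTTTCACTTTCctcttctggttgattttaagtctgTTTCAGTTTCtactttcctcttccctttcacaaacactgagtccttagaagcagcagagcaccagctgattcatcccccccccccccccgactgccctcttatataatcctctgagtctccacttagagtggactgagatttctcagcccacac
Ifit1 (chr19:34640639-34640888, plus): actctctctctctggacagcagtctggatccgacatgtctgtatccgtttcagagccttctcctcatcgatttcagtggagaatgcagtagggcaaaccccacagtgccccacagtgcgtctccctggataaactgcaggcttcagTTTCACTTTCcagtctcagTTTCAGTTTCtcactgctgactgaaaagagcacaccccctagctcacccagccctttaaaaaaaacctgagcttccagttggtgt
Isg15 (chr4:156200819-156201068, minus): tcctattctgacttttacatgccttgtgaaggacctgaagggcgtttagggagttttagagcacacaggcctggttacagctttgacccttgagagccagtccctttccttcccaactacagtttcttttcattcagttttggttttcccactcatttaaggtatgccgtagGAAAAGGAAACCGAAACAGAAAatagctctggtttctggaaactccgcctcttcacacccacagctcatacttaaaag

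The RefSeq table held promoters of 7 of the 9 genes (Ifi27 and Usp18 had no entry), each a window of 300 bases of which 250 lie before the start site. A match to this core on either strand was found in 5 of the 7 (Ifit1, Ifit3, Ifit3b, Isg15 and Bst2), and in 3.44% of the 32851 promoters in the table. The 3 Ifit promoters carry the same pair of matches, TTTCACTTTC and TTTCAGTTTC, at 147 and 113 bases before the start site in Ifit3, 179 and 145 in Ifit3b, and 95 and 76 in Ifit1. Isg15 has 3 overlapping matches, 69, 63 and 57 bases before its start site. The palindromic gamma-activated site TTCNNNGAA was in 1 of the 7 windows (Bst2) and in 8.3% of all promoters. The Ifit3 and Ifit3b stretches align over 224 columns with 96.4% identity and share an unbroken run of 169 bases, while Ifit3 and Ifit1 share no run longer than 13.

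The transcripts of Ifit3 and Ifit3b are near copies as well. Of the 31-base words in the Ifit3 transcript of GENCODE M21, 61.8% also occur in Ifit3b, and 54.1% of those of Ifit3b occur in Ifit3. The submitters' processing notes name kallisto, which divides reads that fit both by estimate, so how the signal is split between the pair is uncertain while their sum is less so. Of the other genes, Isg15 shared 13.1% of its words with other genes and Ifit1 10.8%, and the remaining 5 at most 3.48%.

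The 9 genes differed widely in level. Ifi27, a small mitochondrial protein induced by interferon, averaged 53.9 ± 9.87 over the 12 libraries (SD, n = 12) and exceeded Ifit3 in all 12. Ifit3, which binds Ifit1 and stabilises its hold on foreign RNA, followed with 9.42 ± 3.10, then Bst2, the tetherin that holds budding viruses at the cell surface, with 6.81 ± 2.03. Ifit3b averaged 4.83 ± 1.68, and the ubiquitin-like protein Isg15 3.32 ± 0.659. Neighbours in this order overlapped: Ifit3 exceeded Bst2 in 11 libraries, Bst2 exceeded Ifit3b in 9, and Ifit3b exceeded Isg15 in 10. The lowest were Oasl2, an oligoadenylate synthetase-like antiviral protein, with 2.26 ± 0.661, Ifit1, which binds viral RNA caps, with 2.07 ± 0.588, the transcription factor Irf7 with 1.65 ± 0.483 and Usp18, the protease that removes Isg15 and damps receptor signalling, with 1.02 ± 0.525. Usp18 lies just above the mean of 1 that a gene needed to be tested, and its values ran from 0.263 to 2.28, so its folds are the least certain.

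**Figure D1:**
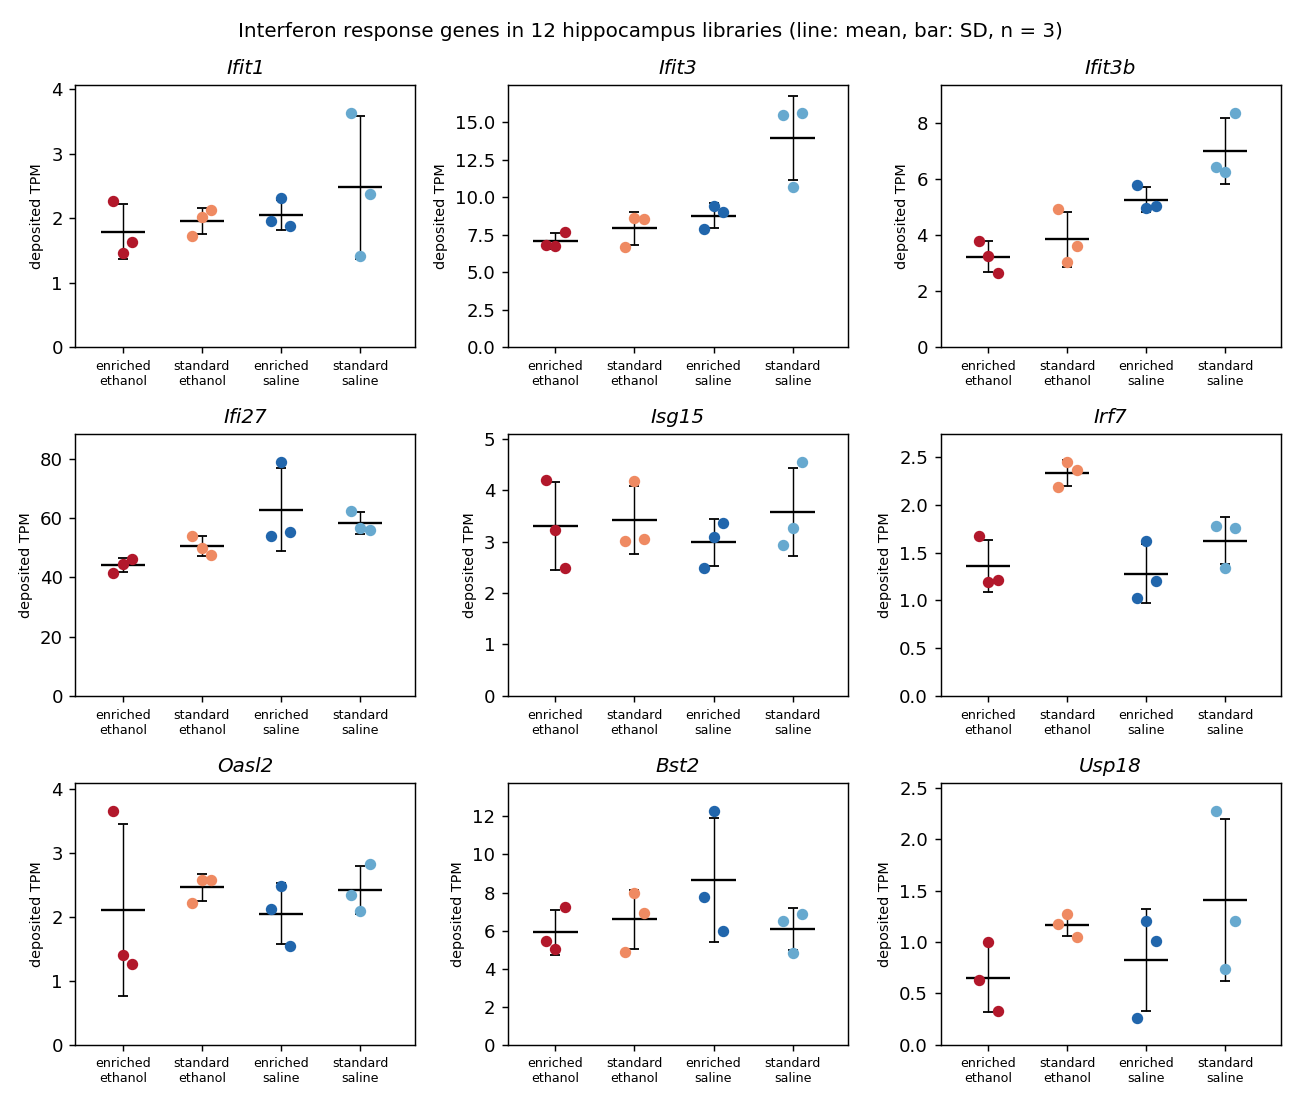
Deposited TPM of the 9 interferon response genes in each library, by group, from 0 upwards on a linear axis of its own per gene; points are libraries, lines are group means and bars SDs (n = 3). Ifit3 is at 10.7 to 15.6 in standard saline mice and at or below 9.40 in the other 9 libraries, whereas Isg15 lies at 2.49 to 4.55 with every group overlapping the others.

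The comparison of ethanol with saline mice asks what early ethanol left in this pathway in adulthood. Averaged over housing, Ifit3b and Ifit3 had the largest differences among the 9 genes. Ifit3 was at 6.82, 6.73 and 7.66 in enriched ethanol mice, against 7.84, 9.40 and 9.03 in enriched saline mice. It was at 6.64, 8.58 and 8.51 in standard ethanol mice, against 15.5, 10.7 and 15.6 in standard saline mice. Every ethanol library lay below every saline library of the same housing, by a wide margin in standard cages and a narrow one in enriched cages. The log2 fold change was -0.77 in standard cages (SE 0.16, limma adjusted p = 0.271) and -0.29 in enriched cages (SE 0.16, limma adjusted p = 0.675), so neither passed the threshold of 0.05 over all 14947 genes tested. Without standard saline replicate 2, the lowest of its group, the standard fold was -0.94 (limma adjusted p = 0.0533). Over all libraries left out singly, that fold ran from -0.942 to -0.655. These folds are on the log2(value + 0.5) scale, which understates changes of low genes.

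Ifit3b was at 3.77, 3.26 and 2.66 in enriched ethanol mice, against 5.77, 4.97 and 5.04 in enriched saline mice. It was at 4.93, 3.02 and 3.6 in standard ethanol mice, against 6.42, 6.24 and 8.35 in standard saline mice. All 6 ethanol libraries were below all 6 saline libraries, as in 0.261% of all genes tested, with the closest, 4.93 and 4.97, almost touching. Its folds were -0.80 in standard and -0.63 in enriched cages on the log2 scale (SE 0.19 each, limma adjusted p = 0.271 and 0.576). Averaged over housing, the fold was -0.72 for Ifit3b (SE 0.13, limma adjusted p = 0.244, 10th smallest p of 14947) and -0.53 for Ifit3 (SE 0.11, limma adjusted p = 0.290, 23rd smallest). With libraries left out singly, these averaged folds ran from -0.803 to -0.646 for Ifit3b and from -0.615 to -0.472 for Ifit3.

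Ifit3 and Ifit3b were also added together, so that the uncertain split no longer counts. The sum had an SD of 0.302 in enriched ethanol, 0.311 in standard ethanol, 0.385 in enriched saline and 3.60 in standard saline mice (n = 3 each), the last as wide relative to its mean as Ifit3b alone. The sum was at 10.6, 9.99 and 10.3 in enriched ethanol mice, against 13.6, 14.4 and 14.1 in enriched saline mice. In standard cages it was at 11.6, 11.6 and 12.1 in ethanol mice, against 21.9, 17.0 and 24.0 in saline mice. The 4 groups did not overlap at all, in the order enriched ethanol, standard ethanol, enriched saline, standard saline. The share of all genes whose 4 groups lie apart in this way was not counted, so how unusual the separation is cannot be judged. Fitted in place of the 2 rows, the sum had a log2 fold change of -0.61 for ethanol averaged over housing (SE 0.08, limma adjusted p = 0.0331), -0.79 in standard cages (SE 0.11, limma adjusted p = 0.0759) and -0.43 in enriched cages (SE 0.11, limma adjusted p = 0.566). The sum was formed after its members' values had been seen, from genes already known to differ, so its p is no independent evidence. The call was lost in 13 of the 24 other settings tried: with a pseudocount of 0.1, a stricter filter, the replicate block, or without any of 10 of the 12 libraries, with limma adjusted p between 0.00327 and 0.176 over all settings. The 2 libraries whose removal kept it were enriched ethanol replicate 3 and standard saline replicate 2. Without standard saline replicate 2 the standard-cage fold of the sum was -0.93 and passed (limma adjusted p = 0.00229), as it did with quantile normalization (limma adjusted p = 0.039) and array weights (limma adjusted p = 0.0208). Without standard saline replicate 3 that fold was -0.69 and did not pass (limma adjusted p = 0.167).

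**Figure D2:**
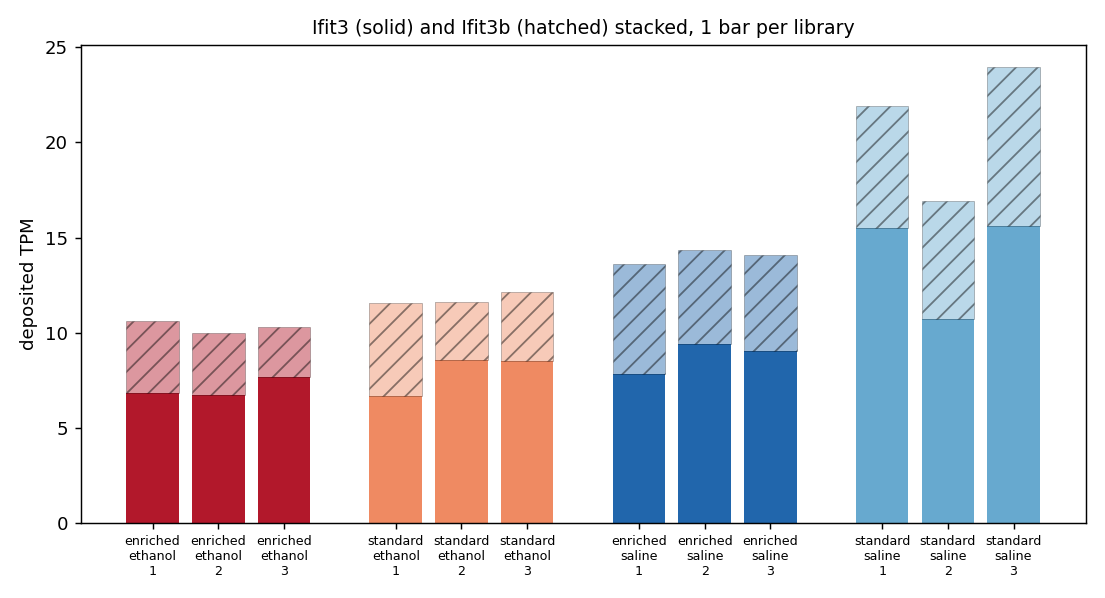
Ifit3 (solid) and Ifit3b (hatched) stacked, deposited TPM per library on a linear axis from 0, 1 bar per library in 4 groups of 3. The stacks end at 9.99 to 10.6 in enriched ethanol, 11.6 to 12.1 in standard ethanol, 13.6 to 14.4 in enriched saline and 17.0 to 24.0 in standard saline mice, while the hatched share varies from 25.8% to 42.6%.

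Ifi27 was also lower in ethanol than in saline mice of the same housing, though enriched saline mice, with the higher mean, overlapped standard saline mice. It was at 41.4, 44.6 and 46.3 in enriched ethanol mice, against 53.9, 78.9 and 55.4 in enriched saline mice, and at 54.0, 50 and 47.4 in standard ethanol mice, against 62.4, 56.6 and 55.9 in standard saline mice. Groups of the same housing did not overlap. The log2 fold change was -0.48 in enriched cages (SE 0.12, limma adjusted p = 0.551) and -0.21 in standard cages (SE 0.12, limma adjusted p = 0.757). Its highest value was in enriched saline replicate 2, the library with the high choroid plexus markers, and without that library the enriched fold was -0.31.

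Irf7, the transcription factor that amplifies interferon production, differed in the opposite direction and in standard cages. It was at 2.19, 2.45 and 2.36 in standard ethanol mice, against 1.78, 1.34 and 1.76 in standard saline mice, a fold of 0.42 on the log2 scale (SE 0.22, limma adjusted p = 0.706). In enriched cages it was at 1.67, 1.19 and 1.21 in ethanol mice, against 1.02, 1.62 and 1.20 in saline mice, and the groups overlapped (0.07, SE 0.22). The test of the difference between the 2 housings did not pass (interaction -0.35, SE 0.31, limma adjusted p = 0.829).

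The remaining members overlapped between ethanol and saline mice in both housings. Ifit1, the neighbour of the Ifit3 pair with the same 2 promoter matches, averaged 1.79 ± 0.426 in ethanol mice of enriched cages, against 2.05 ± 0.236 in their saline counterparts, and 1.95 ± 0.203 in ethanol mice of standard cages, against 2.47 ± 1.11 in their saline counterparts (SD, n = 3 each). Its fold averaged over housing was -0.19, with a 95% limma interval of -0.605 to 0.225. In standard cages its fold was -0.21, and ran from -0.495 to 0.059 over all libraries left out singly. Isg15, with 3 promoter matches, averaged 3.30 ± 0.858 in ethanol mice of enriched cages, against 2.99 ± 0.451 in their saline counterparts, and 3.42 ± 0.660 in ethanol mice of standard cages, against 3.58 ± 0.856 in their saline counterparts (averaged fold 0.03, interval -0.31 to 0.37). Oasl2 had an averaged fold of -0.02 (-0.48 to 0.45) and Usp18 of -0.14 (-0.75 to 0.47). The intervals of Ifit1 and Usp18 reach beyond the fold of -0.53 measured for Ifit3. Bst2 averaged 5.92 ± 1.18 in ethanol mice of enriched cages, against 8.66 ± 3.24 in their saline counterparts, where enriched saline replicate 2 alone stood at 12.3, and 6.59 ± 1.56 in ethanol mice of standard cages, against 6.08 ± 1.10 in their saline counterparts. Its enriched fold was -0.47, and -0.20 without that library.

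**Figure D3:**
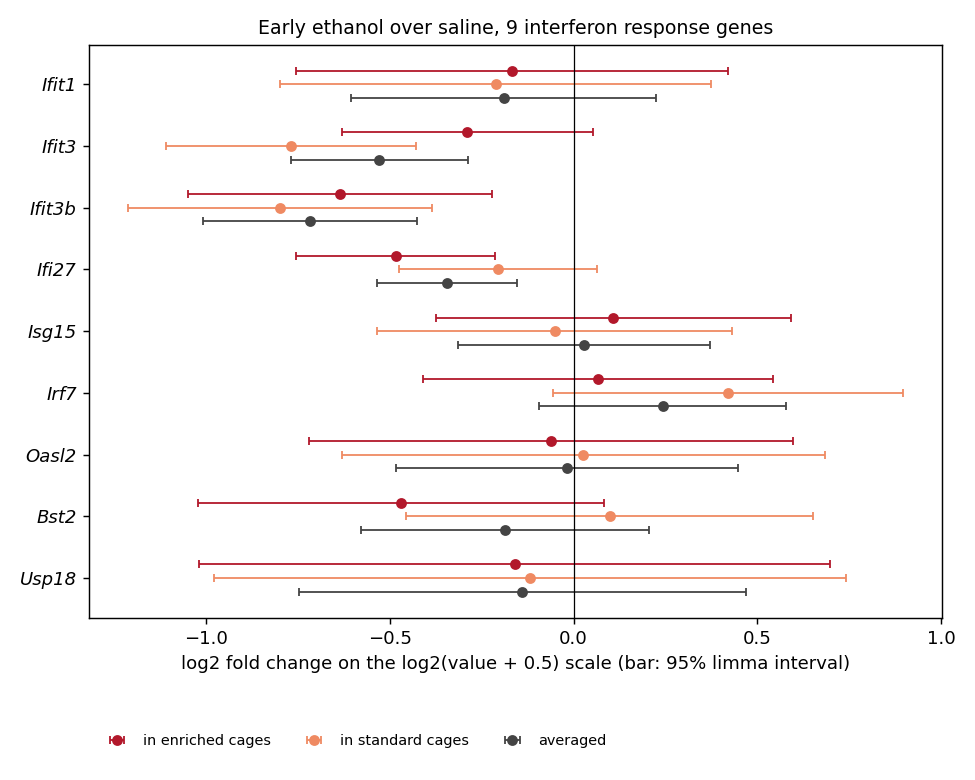
Log2 fold change of ethanol over saline for the 9 genes on the log2(value + 0.5) scale, in enriched cages, in standard cages and averaged; bars are 95% limma intervals without adjustment. The averaged points of Ifit3b (-0.72), Ifit3 (-0.53) and Ifi27 (-0.35) lie to the left with intervals below 0, and those of the other 6 genes have intervals that include 0.

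Counted together, 0 of the 9 genes passed limma's adjusted threshold for ethanol in standard cages, in enriched cages or averaged over housing. Over all genes 2, 0 and 2 passed (0.0134%, 0% and 0.0134%). At an unadjusted p under 0.05 there were 2, 2 and 3 of the 9, all lower in ethanol mice, where 3.64%, 3.91% and 4.05% of all genes tested were lower at that level. Groups that did not overlap, with ethanol lower, were found in both housings for 3 members (Ifit3, Ifit3b and Ifi27), a pattern that 0.549% of all genes showed. Within standard cages 3 members were lower without overlap (5.99% of all genes) and 1, Irf7, higher (6.11%). Within enriched cages 3 were lower (7.45%) and 0 higher (7.78%). The members had been picked with such results known, so these shares describe them and carry no test. Where the near copies Ifit3 and Ifit3b both enter a count, they are not 2 separate measurements, since reads that fit both were divided by estimate. The median log2 fold change of the 9 was -0.12 in standard cages, -0.17 in enriched cages and -0.19 averaged, and over all genes tested it was 0.00, -0.01 and 0.00. Folds below 0 numbered 6, 7 and 7 of 9, and made up 49.3%, 51.9% and 50.8% of all genes tested.

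Enrichment was compared with standard housing to ask whether later surroundings moved the same genes. In ethanol mice all 9 log2 fold changes were below 0 (51.8% of all genes), with a median of -0.19, and 0 passed limma's adjusted threshold (1 gene of all tested, 0.00669%). Irf7 was at 1.67, 1.19 and 1.21 in enriched ethanol mice, against 2.19, 2.45 and 2.36 in standard ethanol mice. The groups did not overlap (-0.62 on the log2 scale, SE 0.22, limma adjusted p = 0.861), and Irf7 was the 1 member at an unadjusted p under 0.05 (2.66% of all genes were lower at that level). Usp18 was at 0.631, 1.0 and 0.331 in enriched ethanol mice, against 1.18, 1.27 and 1.05 in standard ethanol mice, again without overlap (-0.57, SE 0.39, limma adjusted p = 0.941). Usp18 averaged 0.741 in the 6 enriched libraries and 1.29 in the 6 standard ones, so it reached the mean of 1 needed for testing through the standard cages, where it is high, and its fold and its lack of overlap support nothing. The count of 9 below 0 and the median include it. With a pseudocount of 0.1 its fold was -0.85 and that of Irf7 -0.75. Ifi27 was the third member without overlap (-0.19), where 5.97% of all genes were lower in that way and 6.07% higher.

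In saline mice Ifit3 stood out. It was at 7.84, 9.40 and 9.03 in enriched saline mice, against 15.5, 10.7 and 15.6 in standard saline mice, a log2 fold of -0.63 (SE 0.16, limma adjusted p = 0.276). Without standard saline replicate 2 it was -0.80 (limma adjusted p = 0.0667). Over all libraries left out singly, the Ifit3 fold ran from -0.798 to -0.536. Ifit3b was also lower without overlap (-0.37, SE 0.19, limma adjusted p = 0.532). The sum of the pair had -0.55 (SE 0.11, limma adjusted p = 0.217), and without standard saline replicate 2 it had -0.69 and passed (limma adjusted p = 0.0175). Without standard saline replicate 3 the sum had -0.446 and did not pass (limma adjusted p = 0.353). Ifit3 and Ifit3b were the members whose groups did not overlap, against 6.57% of all genes lower and 7.4% higher. 7 of the 9 folds, that of Usp18 included, were below 0 (49% of all genes), with a median of -0.21. Bst2 (0.43) and Ifi27 (0.08) were above 0. Both had their highest value in enriched saline replicate 2, and without it Bst2 had 0.17 and Ifi27 -0.09. 0 of the 9 passed limma's adjusted threshold (4 of all genes, 0.0268%), and 1, Ifit3, had an unadjusted p under 0.05 (4.6% of all genes were lower at that level). These comparisons share their standard saline libraries with those of ethanol in standard cages, so the low Ifit3 of both is measured against the same 3 mice.

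**Figure D4:**
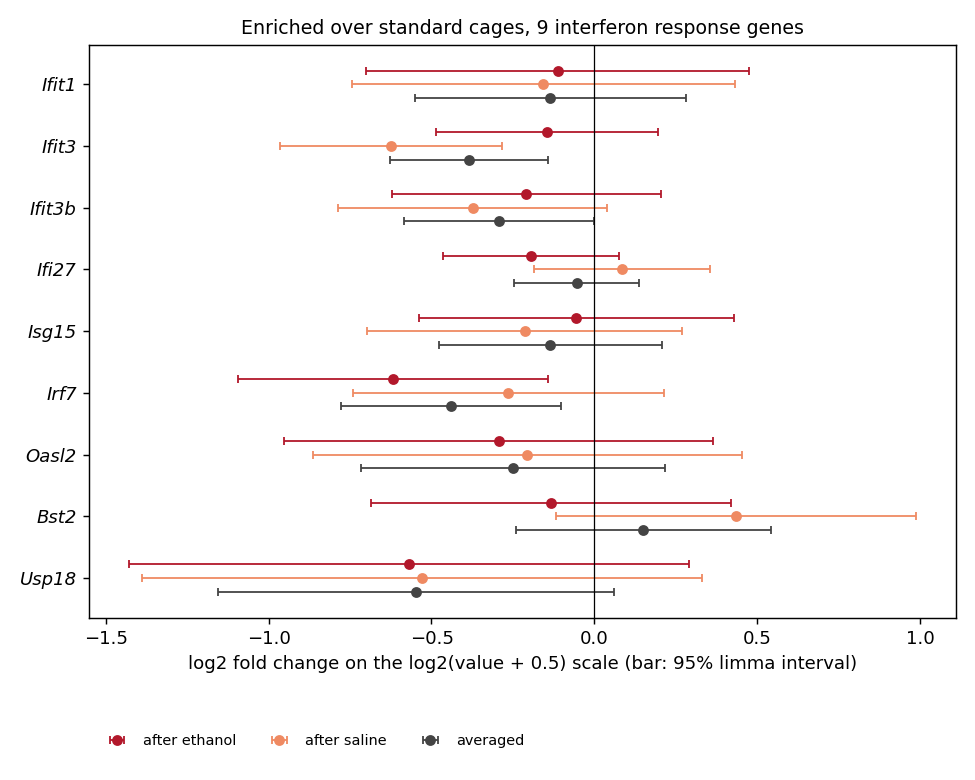
Log2 fold change of enriched over standard cages for the 9 genes on the log2(value + 0.5) scale, after ethanol, after saline and averaged; bars are 95% limma intervals without adjustment. After ethanol all 9 points lie below 0, from -0.62 (Irf7) to -0.06 (Isg15), and after saline they run from -0.63 (Ifit3) to 0.43 (Bst2).

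Averaged over injection, 8 of the 9 genes had a fold below 0 (50% of all genes), among them Irf7 (-0.44, SE 0.15), Ifit3 (-0.39, SE 0.11) and Ifit3b (-0.29, SE 0.13), and Bst2 was at 0.15. Usp18 (-0.55, SE 0.28) is counted among the 8, but it was tested only through its level in standard cages, so its fold supports nothing. The median of all 9, Usp18 included, was -0.25, against 0.00 over all genes tested. 0 of the 9 passed with limma (limma adjusted p = 0.470 for Ifit3 and 0.570 for Irf7; 0.0201% of all genes passed), and 2 had an unadjusted p under 0.05, both lower (3.82% of all genes). No member separated the 6 enriched from the 6 standard libraries, where 0.14% of all genes were lower and 0.234% higher in that way. The interaction of ethanol and housing passed for 0 members (0.0134% of all genes), with 0 at an unadjusted p under 0.05 (7.41% of all genes). Ifit3 came closest, with 0.48 (SE 0.22, limma adjusted p = 0.671), its fold for ethanol being -0.29 in enriched and -0.77 in standard cages. With libraries left out singly, its interaction ran from 0.366 to 0.653.

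The sum of Ifit3 and Ifit3b had -0.37 averaged over injection (SE 0.08, limma adjusted p = 0.323), and -0.44 without standard saline replicate 2, which passed (limma adjusted p = 0.0283). Without standard saline replicate 3 it had -0.315 and did not pass (limma adjusted p = 0.456). After ethanol it had -0.18 (SE 0.11, limma adjusted p = 0.924). Cell type markers moved with housing as well. Averaged over injection, all 9 oligodendrocyte markers (median -0.28), all 7 ependyma markers (median -0.38) and all 5 red blood cell markers (median -0.69) had folds below 0. After saline all 10 meningeal fibroblast markers were above 0 (median 0.68), 5 of them at an unadjusted p under 0.05 (limma). Of all 14947 genes tested, 811 were higher at that level. The part of these cell types in the differences between cages was not tested.

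Upstream of these genes, none of the 12 interferon ligand genes reached the level for testing: 7 were listed at 0 in all 12 libraries, and the highest value of any was 0.41 (Ifnk). A listed 0 can be a failed estimate in such a table. Interferon receptors were well above it, with Ifnar1 at 27.7 ± 0.647 in enriched ethanol, 28.1 ± 3.11 in standard ethanol, 25.6 ± 1.86 in enriched saline and 26.5 ± 1.79 in standard saline mice. The transcription factor genes Irf9 and Stat2 had log2 folds for ethanol averaged over housing of 0.00 (SE 0.09) and -0.05 (SE 0.09), and neither passed with limma.

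Of 119 tested genes in the 7 other interferon lists that had any, 0 passed limma's adjusted threshold in any of the 7 comparisons. For ethanol averaged over housing 10 were lower and 4 higher at an unadjusted p under 0.05 (4.05% and 3.97% of all genes), 63.9% had a fold below 0 against 50.8% of all genes, and the median was -0.06. By list, the median was -0.14 for MHC class I and antigen processing, with 13 of 14 below 0 and 3 at an unadjusted p under 0.05. It was -0.09 for the interferon-gamma GTPases (11 of 15 below 0), -0.08 for the nucleic acid sensors (11 of 17) and -0.05 for receptors and signalling (12 of 20). It was -0.03 for the other interferon-induced effectors (25 of 46) and 0.00 for the Isg15 conjugation genes (3 of 6). Those 6 include the members Isg15 and Usp18, which are not among the 119. The HIN200 list, of DNA sensors, had 3 tested genes and a median of -0.04.

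The 3 genes of these lists with the smallest p on the lower side were Ifit2, Eif2ak2 and Unc93b1, and none passed (limma adjusted p from 0.5 to 0.514). Ifit2, the first gene of the Ifit cluster, was at 5.92, 6.50 and 5.48 in enriched ethanol mice, against 7.60, 6.78 and 8.51 in enriched saline mice, and at 5.15, 5.69 and 6.83 in standard ethanol mice, against 9.18, 6.02 and 8.17 in standard saline mice. Groups of the enriched housing did not overlap, as in 7.45% of all genes on the lower side. Those of the standard housing overlapped (averaged fold -0.35, SE 0.12). Eif2ak2, the kinase PKR that halts translation on double-stranded RNA, was at 4.68, 4.58 and 4.89 in enriched ethanol mice and between 5.97 and 7.14 in the other 9 libraries. It was also on the lower side for enrichment averaged over injection (-0.23, SE 0.08, limma adjusted p = 0.564). The share of all genes with 1 group below the other 9 libraries was not counted, so how unusual this is cannot be judged. Unc93b1, which carries Toll-like receptors to endosomes, averaged 11.4 ± 1.45 in ethanol mice of enriched cages, against 13.7 ± 1.94 in their saline counterparts, and 10.9 ± 1.67 in ethanol mice of standard cages, against 13.9 ± 1.61 in their saline counterparts.

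On the higher side the smallest p belonged to Ly6e, a membrane protein that limits virus entry (194 ± 11.9 in ethanol mice of enriched cages, against 163 ± 4.01 in their saline counterparts, fold averaged over housing 0.22), the HIN200 gene Mndal (0.51) and the RNA sensor Tlr7 (0.49), with limma adjusted p from 0.466 to 0.527. Tlr7 was at 2.36, 3.79 and 1.80 in standard ethanol mice, against 1.36, 1.24 and 1.23 in standard saline mice, without overlap. In standard cages 6.11% of all genes were higher in that way. For enrichment, Shisa5 (0.24), the feedback inhibitor Socs3 (0.44) and H2-T22 (0.15) had the smallest p on the higher side and Tbk1 (-0.16) and the chemokine Cxcl10 (-0.71), beside Eif2ak2, on the lower side, with limma adjusted p from 0.548 to 0.617. Cxcl10 averaged 0.981, 0.968 and 0.513 in enriched ethanol, standard ethanol and enriched saline mice and 2.28 in standard saline mice, so it reached the mean of 1 through that group alone, and its fold supports nothing. Medians of all the other interferon lists together were 0.02 for enrichment averaged over injection and -0.04 for the interaction.

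**Figure D5:**
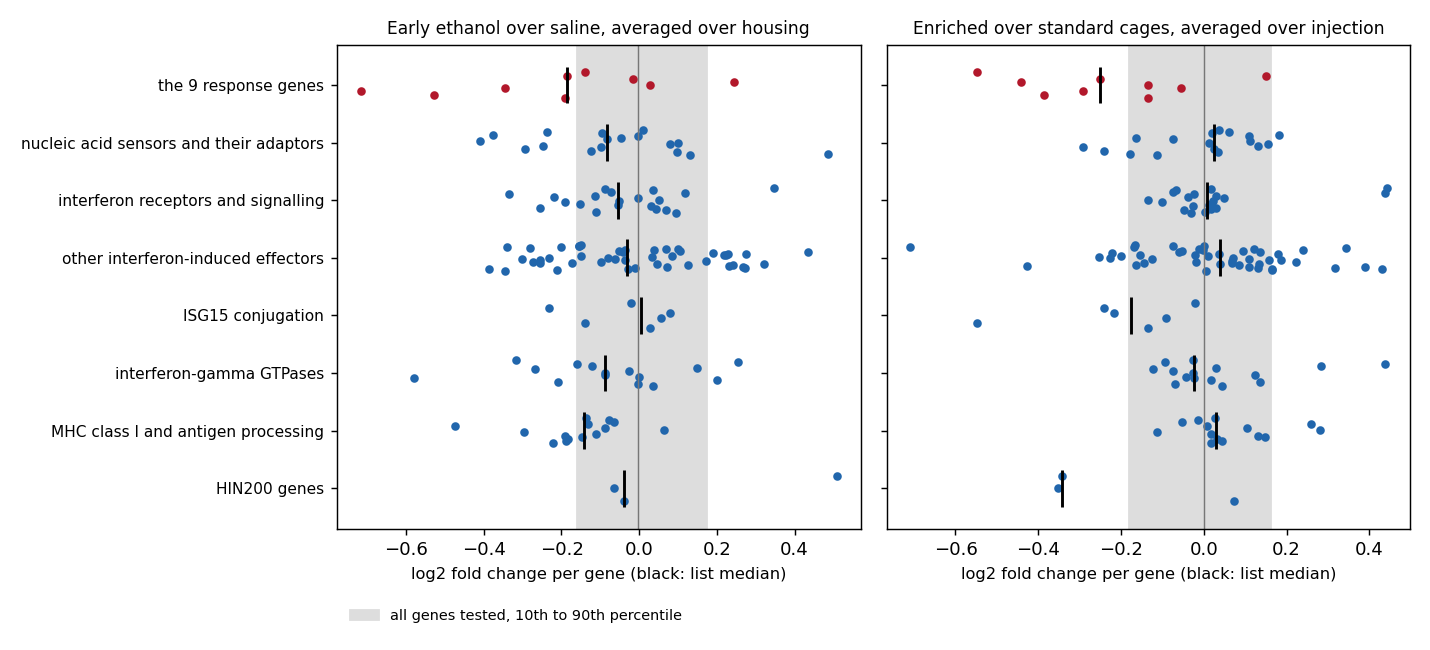
Log2 fold change per gene for the 9 response genes (red) and 7 other interferon lists (blue), for ethanol over saline (left) and enriched over standard cages (right); black marks are list medians and the grey band spans the 10th to the 90th percentile of all genes tested. For ethanol the median of the 9 is -0.19 and the list medians lie between -0.14 and 0.00; a gene in 2 lists is drawn in both.

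Cell type markers were set beside these values, since in tissue RNA fewer cells of a type and less RNA per cell cannot be told apart. The 12 microglia markers summed to 545 to 579 in enriched ethanol, 538 to 596 in standard ethanol, 539 to 592 in enriched saline and 547 to 598 in standard saline mice, ranges that overlap almost fully. Endothelial sums of 10 markers were 222 to 282, 273 to 290, 270 to 324 and 233 to 287 in the same order. Border macrophage sums of 7 markers were 10.1 to 15.2, 9.11 to 12.6, 10.2 to 13.1 and 6.01 to 12.4. Blood leukocyte sums of 12 markers were 20.2 to 41.6, 17.1 to 37.9, 12.8 to 36.3 and 13.7 to 37.6, with the cytotoxic cell gene Nkg7 at 0 in 9 of 12 libraries. None of these sums separated ethanol from saline mice of the same housing. Taken singly, 2 of the 10 endothelial markers were lower and 0 higher in enriched cages at an unadjusted p under 0.05 (limma, 3.91% of all genes lower). Their median fold was -0.189 there and 0.208 in standard cages, with 0 at that level. For the interaction it was -0.364, with 4 lower and 0 higher (7.41% of all genes in either direction). Oligodendrocyte sums of 9 markers did not fully separate ethanol from saline mice either, with 3810 to 5670 in enriched ethanol and 3180 to 3910 in enriched saline mice, and 5260 to 5580 in standard ethanol and 3210 to 5480 in standard saline mice. Astrocyte sums of 8 markers did separate in enriched cages, where they were 3090 to 3230 in ethanol and 2790 to 2870 in saline mice, and overlapped in standard cages (3190 to 3260 against 2830 to 3500). Hippocampal neuron sums of 12 markers also separated in enriched cages, with 1930 to 2090 in ethanol and 1680 to 1770 in saline mice. In standard cages they overlapped (1690 to 2120 against 1620 to 2240). There 4 of the 12 were lower and 0 higher at an unadjusted p under 0.05 (limma), where 3.64% of all genes were lower. These 4 were Dsp (-0.85), Trpc6 (-0.62), C1ql2 (-0.60) and Spink8 (-0.39). Of the 12, 3 had folds above 0, and the median fold was -0.109. Mural cell sums of 8 markers overlapped in both housings, though in standard cages 4 of the 8 were higher and 0 lower at an unadjusted p under 0.05 (limma, median fold 0.203). Of all 14947 genes tested, 561 were higher at that level in standard cages. Meningeal fibroblast sums of 10 markers separated in standard cages, with 145 to 197 in ethanol and 83.0 to 138 in saline mice, where 4 of the 10 were higher at an unadjusted p under 0.05 (limma) and the median fold was 0.43. In enriched cages they overlapped (128 to 153 against 136 to 225). Averaged over housing, the oligodendrocyte list had 9 of 9 folds above 0 for ethanol, with a median of 0.465. Of these 9, 8 were at an unadjusted p under 0.05 (limma), against 3.97% of all genes higher at that level. All 8 astrocyte markers were above 0 (median 0.08) and 11 of 12 microglia markers below 0 (median -0.04). All 11 choroid plexus markers were below 0 (median -0.59), a value that holds enriched saline replicate 2. In standard cages, which do not include that library, 7 of the 11 were below 0 (median -0.07). The part of these cell types in the Ifit3 difference was not tested.

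The 9 genes did not vary as a block. Over the 12 libraries, Pearson's r of the log2 values, given as a description, was 0.72 between Ifit3 and Ifit3b and 0.62 between Ifit3 and Ifit1, against 0.12 between Ifit3 and Irf7 and -0.10 between Ifit3b and Irf7. After group means were removed Ifit3 and Ifit3b had r = -0.30, and Ifit3 had 0.69 with Ifit1 and 0.68 with Bst2. The highest pairs on that measure were Ifit1 with Irf7 (0.73) and Irf7 with Oasl2 (0.72). The genes whose log2 values followed Ifit3 most closely over the 12 libraries were Hhipl1 (r = 0.91), Plekha6 (0.90), Ddx21 (0.90), Traj23 (0.87) and Inmt (0.87), and none of them is in the interferon lists. Those closest to the mean of the 9 standardised genes were Acadl (0.86), Dennd4b (0.86), Capza1 (0.84), Ripk1 (0.84) and Stard13 (0.83). Such maxima over all genes tested are high by choice and carry no p.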

How the data were processed

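The authors deposited 1 table of values per gene and library, named as TPM. Its columns sum to different totals, so it was treated as a deposited signal proportional to TPM within a library, with the tests unchanged. Per the submitters' processing notes, CASAVA, kallisto and sleuth and the build mm10 were used, without versions or roles. The annotation release is not given in the sources used here. Per the labels' protocols, total RNA libraries were stranded and depleted of ribosomal RNA. All 12 columns were matched to samples by name, with 0 left over. Symbols (35827 of 36119 identifiers) and positions came from GENCODE M21 on GRCm38, and promoters from RefSeq on GRCm38.p6.

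Values were analysed as log2(value + 0.5) and genes had to average 1 or more, which left 14947 and all 9 members. limma 3.58.1 in R 4.3.3 estimated the 4 group means from the 12 libraries together, with a mean-variance trend (residual df 8, prior df 3.82). Each of the 7 contrasts was tested on both sides, its p values adjusted by Benjamini-Hochberg across those genes, and called under 0.05. On simulated data for ethanol in standard cages over 14947 genes, 68% of genes changed by 2-fold and 95% changed by 4-fold were called, and 4.12% of calls were unchanged genes. The simulation changed 100 genes of each size at once, which eases the adjusted threshold, while 2 genes passed in the data. These shares therefore do not give the chance of calling a changed member here. Named pathway genes are the 3 smallest p in each direction for both averaged contrasts, and like genes the 5 highest correlations. The genes singled out beyond that rule (Ifnar1, Stat2, Irf9) were chosen as a receptor gene and transcription factors of the pathway. Members and lists were chosen with earlier results of these data known.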

Additional observations from a re-analysis of the deposited data

How the results depend on the processing

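Alternatives were other pseudocounts (0.1 and 1), no filter or a mean of at least 5, 3 scalings, no trend, and robust and weighted fits. Others were the groups of a comparison alone, the replicate block, and each library left out. 2 were added after seeing the data. They were the removal of enriched saline replicate 2 together with standard saline replicate 2, and the sum of the Ifit3 pair. With the 9 genes as deposited, the count called was 0 in all 7 comparisons under every setting. With Ifit3b added to Ifit3, 1 was called for ethanol averaged over housing (-0.61), and under other settings the sum also passed for ethanol in standard cages and, without standard saline replicate 2, for enrichment after saline and averaged. The replicate block gave 0 calls among the 9 in each comparison. The replicate numbers pair no libraries: same-numbered libraries had correlations of -0.15 to 0.06 in their deviations from group means, and 3 of 12 were closest to their own number.

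Ifit3, Ifit3b and Irf7 kept their direction in all settings for ethanol in standard cages and averaged over housing. Folds near 0 changed sign, and the cause was not tested. The ranges that follow cover each library left out and the joint removal of enriched saline replicate 2 and standard saline replicate 2. With libraries left out, ethanol folds ran in standard cages from -0.495 to 0.059 (Ifit1), -0.185 to 0.113 (Isg15), -0.055 to 0.126 (Oasl2), -0.047 to 0.283 (Bst2) and -0.391 to 0.193 (Usp18), in enriched cages from -0.057 to 0.270 (Isg15), -0.052 to 0.199 (Irf7), -0.454 to 0.160 (Oasl2) and -0.518 to 0.063 (Usp18), and averaged from -0.054 to 0.111 (Isg15), -0.213 to 0.094 (Oasl2) and -0.318 to 0.017 (Usp18). Enrichment folds ran from -0.221 to 0.106 (Isg15) and -0.318 to 0.007 (Bst2) after ethanol, -0.514 to 0.115 (Ifit1) and -0.111 to 0.182 (Ifi27) after saline and -0.314 to 0.001 (Ifit1) and -0.057 to 0.261 (Bst2) averaged. With libraries left out only singly, the low ends were -0.44 (Ifit1) and -0.091 (Ifi27) after saline and -0.276 (Ifit1) and 0.016 (Bst2) averaged. Interactions ran from -0.228 to 0.401 (Ifit1), -0.006 to 0.321 (Isg15), -0.481 to 0.133 (Oasl2) and -0.400 to 0.454 (Usp18). Their high ends were 0.327 (Ifit1) and 0.231 (Usp18) with libraries left out only singly. Medians of the 9 ran from -0.226 to 0.011 for ethanol in standard cages, -0.362 to -0.094 in enriched cages and -0.276 to -0.052 averaged, and for enrichment from -0.409 to -0.146 after saline.

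With a mean of at least 5, which leaves 3 members, the medians were -0.47 for ethanol in enriched cages, -0.345 averaged, 0.084 for enrichment after saline and -0.055 averaged. Quantile normalization gave Oasl2 -0.031 for ethanol in standard cages and an interaction of 0.002, and array weights gave Usp18 an interaction of 0.064. Without enriched saline replicate 2 and standard saline replicate 2 together, the median for enrichment after saline was -0.409 and Ifi27 stood at -0.111. Over all genes, calls for ethanol averaged over housing were 2, and 17 with no filter, 0 with a pseudocount of 0.1 and 10 without enriched ethanol replicate 3. Without that library they were 15 for ethanol in enriched cages and 21 for enrichment after ethanol, against 0 and 1 with it. Without standard saline replicate 2 they were 20 for enrichment after saline and 7 for ethanol in standard cages, against 4 and 2 with it. For enrichment averaged over injection they were 3, and 16 with no filter, 12 without enriched ethanol replicate 3 and 10 without standard saline replicate 2. Depth is unknown, so counting error could not be given.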
